A study of Mus musculus and Rattus norvegicus with 33 samples.

Results

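The comparison described here is between muscles of rats that were trained by nerve stimulation every day for 30 days and muscles of rats trained once every 3 days over the same 30 days. Its members were chosen by the labels of the left legs alone. They are 5 of the 33 libraries of the series, or 5 of its 16 rat libraries. Under the names given in their labels, these were 2 left legs with daily training (TAL292 and TAL294) and 3 left legs trained every 3 days (TAL295, TAL298 and TAL299). All were RNA libraries of the tibialis anterior, a fast muscle of the lower leg, from rats of genotype WT. Training was delivered by an implanted stimulator set over a Bluetooth link, and the trained legs carry a time label of 1 hour after exercise. The other rat libraries were 3 left legs labelled sham (TAL296, TAL297 and TAL300) and 8 right legs labelled contralateral control, 1 from each rat. No time after exercise was given for these, and the sham label speaks of surgery without saying whether a device was placed. Strain, sex, age, the settings of the stimulator and the load on the muscle were not found in the labels. The schedules differ both in the number of sessions and in the rest before the last one, and these cannot be told apart. Each leg was treated as 1 sample, so p-values measure only the spread between these legs.

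Skeletal muscle fibres carry different myosin heavy chains, and repeated low-intensity activity is known to move fibres from the fastest type, IIB, through IIX and IIA towards slow fibres. A single bout also switches on immediate early genes, which encode short-lived transcription factors, and genes for chaperones, load-bearing Z-disc proteins and secreted stress factors within hours. In a muscle sampled soon after a session, slow adaptation to the whole programme and the response to the last bout can both be present in the RNA.

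Values are counts scaled to the same total in each library (CPM), as the authors deposited them, and log2 differences are on log2(CPM + 0.5), daily minus every 3 days, with their standard errors, so that a negative value means a lower level in the daily legs. This scale understates the difference of low genes. A gene was called at a limma adjusted p under 0.05 over 10356 genes tested. Estimated depth was 11.6 to 21.4 M reads in the trained legs, and the right leg TAR299 was the shallowest rat library at 4.87 M. The skeletal muscle markers Acta1, Ckm, Myh4, Tnnt3 and Mb were all detected in every trained leg, with a summed level of 81013 to 91724 CPM in the daily legs and 100334 to 117986 CPM in the others. Without Myh4, which is itself one of the genes that differed, the sums were 91653 and 80424 CPM against 98061, 102926 and 95412 CPM. In bulk muscle, fewer cells or fibres of a type and less RNA per cell cannot be told apart.

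Both schedules were first set against the untrained right legs, a group that the 2 comparisons share. Daily legs had 851 genes called, 8.22 percent of those tested, with 552 higher (5.33 percent) and the rest lower (2.89 percent). Legs trained every 3 days had 690 called, 6.66 percent, with 514 higher (4.96 percent) and 176 lower (1.7 percent). When each animal was fitted as a block, so that a leg was read against the other leg of the same rat, the daily count was 284 (2.74 percent, 1.77 higher and 0.975 lower) and the other 570 (5.5 percent, 4.35 higher and 1.16 lower). The daily count of 851 was 123 without TAL292 and 528 without TAL294, where the 1 remaining daily leg is assumed to vary like the other groups. The other count of 690 was 323 without TAL295 and 411 without TAL299. Against the sham legs the daily legs had 843 genes called, 8.14 percent, with 573 higher (5.53 percent) and 270 lower (2.61 percent). The other trained legs had 440 called, 4.25 percent, with 368 higher (3.55 percent) and 72 lower (0.695 percent). The daily split against sham was 505 higher and 410 lower after median-of-ratios rescaling. The daily count against sham was 188 without TAL292 and 517 without TAL294, and the other was 267 without TAL295 and 272 without TAL299.

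The direct comparison of the schedules gave 9 genes, all of them lower after daily training. These were the fastest myosin Myh4, the adhesion receptor Adgrb2, the secreted stress factor Gdf15, the fast-fibre Z-disc protein Actn3, the cell-surface protein Mdga1, the RNA polymerase II phosphatase Ctdp1, the ubiquitin ligase Rnf145, the alanine aminotransferase Gpt2 and the glucose-6-phosphate transporter Slc37a4. They were 0.0869 percent of the genes tested. No gene was called higher by limma, although at an unadjusted p under 0.05 there were 609 genes (5.88 percent), of which 2.58 percent of those tested were higher and 3.3 percent lower. For each of the 9 genes, both daily legs lay below all 3 other trained legs. Such a separation was common, since both daily legs were below all the others in 1328 genes (12.8 percent) and above them in 1361 (13.1 percent).

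With each animal fitted as a block 0 genes were called. Which genes were called also depended on single legs. The count was 3 without TAL292, with Gdf15 the gene shared with the full comparison, and 14 without TAL294, of which 4 were higher (Rgcc, Prkag2, Th and Rdh16, named here after their values were seen). It was 4 without TAL295, 4 without TAL298 and 4 without TAL299. Leaving out the shallow right leg TAR299, which is in neither group but enters the shared spread, gave 29 genes, 28 lower and 1 higher, with all 9 among them. The set also changed with the legs that supply the estimate of spread. With the 5 trained legs alone 21 genes were called, 16 lower and 5 higher (Mtus1, Gbe1, Nos1, Lamb3 and Gabrr1), and with the 8 left legs alone 11, all lower. Each of these sets held 3 of the 9, Gdf15, Mdga1 and Ctdp1. After median-of-ratios rescaling Adgrb2, Mdga1 and Slc37a4 lost their call (limma adjusted p = 0.0683, 0.0576 and 0.0791). Without the mean-variance trend the same genes and Gpt2 lost it (limma adjusted p = 0.0735 to 0.0975). Gdf15 kept its call without each of the 5 trained legs in turn, Myh4 and Ctdp1 without 4 of them, Actn3 without 2, Adgrb2 and Gpt2 without 1, and Mdga1, Rnf145 and Slc37a4 lost it in all 5 of these fits. All 9 were lower in the daily legs in each of the 17 alternative fits. For most of these fits that outcome was fixed beforehand. Leaving out a leg cannot turn the sign where both daily legs lie below all 3 others. Fits that change only the estimate of spread keep the same difference.

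**Figure D1:**
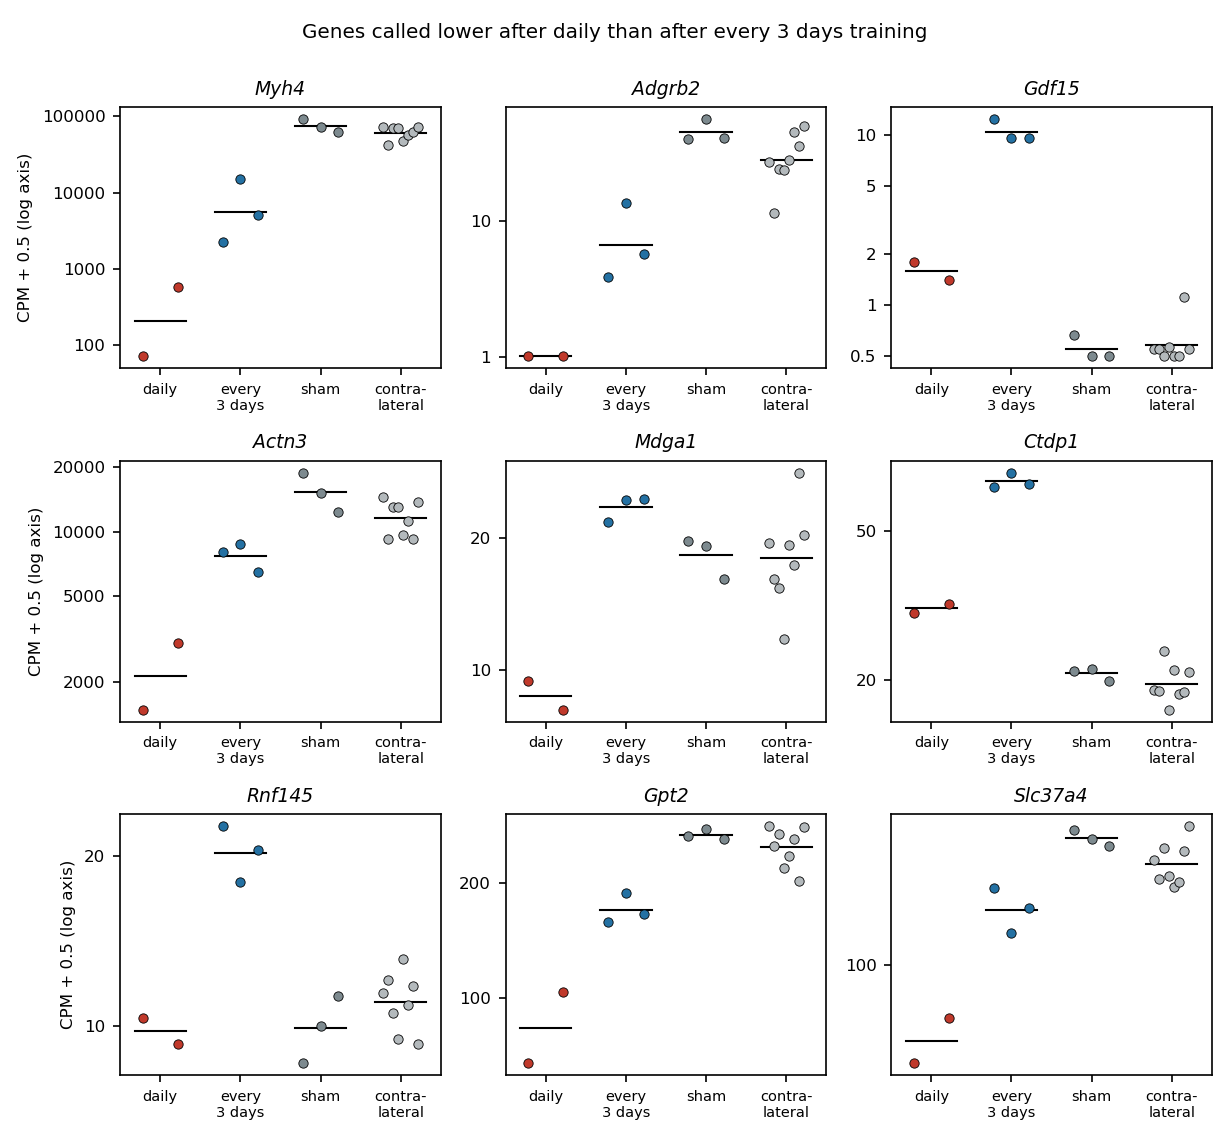
CPM of the 9 genes called in the direct comparison, on a log axis with 0.5 added, in each leg of the 4 rat groups; each point is 1 leg and each line the geometric mean of a group. Both daily legs lie below the 3 legs trained every 3 days in each of the 9 panels, while the position of the sham and contralateral legs differs between genes.

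Myh4 (chromosome 10, 51923359 to 51946298, build taken as rn7) encodes the heavy chain of the fastest fibres, type IIB. It was at 71.4 and 589 CPM in the daily legs and at 2273, 15060.1 and 5163 CPM in the legs trained every 3 days. The contralateral legs ranged from 42635 to 73668 (median 66851) CPM and the sham legs were at 92069, 72040.5 and 62098 CPM, so that every trained leg lay below every untrained one. Daily training was 27.3-fold below training every 3 days, a log2 difference of -4.77 ± 0.68 (limma adjusted p = 0.00586). Against contralateral legs Myh4 fell by 8.22 on the log2 scale with daily training (limma adjusted p = 1.25e-07) and by 3.45 every 3 days (limma adjusted p = 0.000202). The legs also differed within a schedule, and without TAL292, the leg with the lowest level, the direct difference was -3.25 and no longer called (limma adjusted p = 0.185). Nor was it called with the spread taken from the 5 trained legs alone (limma adjusted p = 0.192) or the 8 left legs alone (0.0882).

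Levels of the 4 adult myosin heavy chains can be set side by side once CPM is divided by the length of the deposited transcript. On that scale Myh4 was 0.13 and 1.01 percent of the sum of the 4 in the daily legs, and 3.17, 19.1 and 8.08 percent in the legs trained every 3 days. It was 53.0 to 83.5 percent in contralateral legs and 69.1 to 89.7 percent in sham legs. Myh1, the IIX chain next in speed, made up 87.4 and 89.2 percent in the daily legs and 93.3, 74.3 and 75.2 percent in the others, against 11.5 to 36.0 percent in contralateral legs. The 2 schedules overlapped in this share. Reads of these similar genes could be divided between copies by the counting, so each separate value is uncertain.

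**Figure D2:**
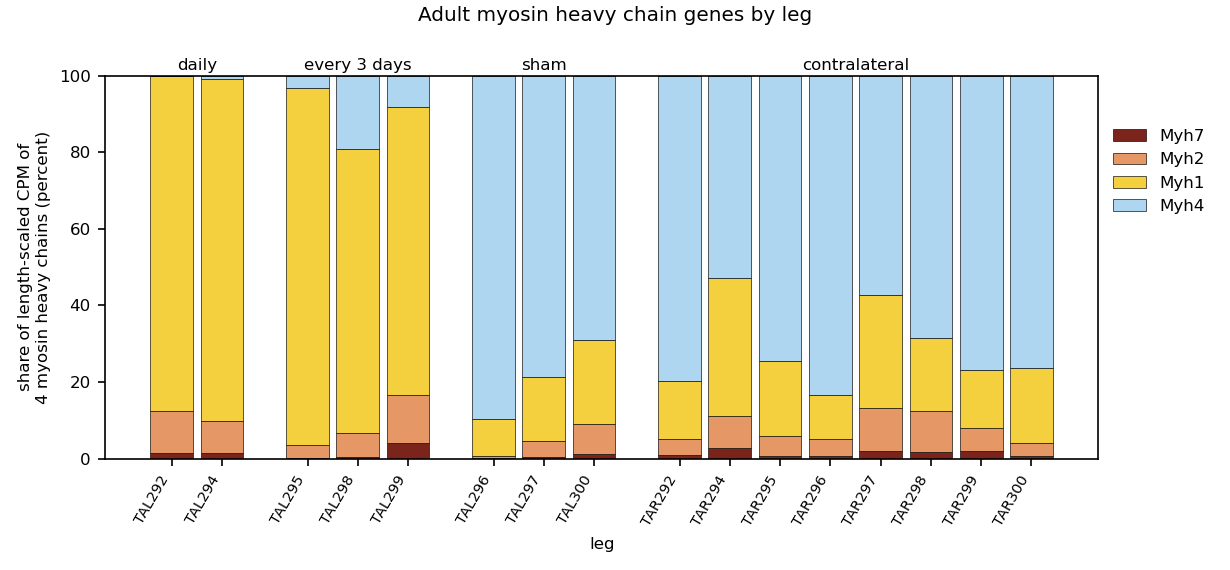
Share of the 4 adult myosin heavy chains, in percent of their summed CPM per transcript length, as stacked bars with 1 bar per leg for the 16 rat legs. Myh1 takes 74.3 to 93.3 percent of every trained bar, and the Myh4 part is thinnest in the 2 daily legs at 0.13 and 1.01 percent.

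In CPM, Myh1 was at 48528 and 52372 in the daily legs and 67096, 58674 and 48199 in the others, and the groups overlapped. Its level rose against contralateral legs by 1.57 with daily training (limma adjusted p = 0.006) and by 1.76 every 3 days (limma adjusted p = 0.000586). The daily call was lost without TAL292 (limma adjusted p = 0.107) or TAL294 (limma adjusted p = 0.0669). Myh2, the IIA chain, was at 6077 and 4855 CPM daily and 2347, 4808 and 8185 CPM every 3 days. Myh7, the slow chain, was at 846 and 857 CPM and at 169, 375 and 2488 CPM, with TAL299 far above TAL295 and TAL298. Neither gene separated the schedules, with log2 differences of 0.26 ± 0.76 and 0.66 ± 1.05.

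Actn3 (chromosome 1, 202159081 to 202175013), the alpha-actinin of the Z-discs of fast fibres, was also lower after daily training. It was at 1479 and 3036 CPM in the daily legs against 8060.2, 8769 and 6498 CPM, a log2 difference of -1.86 ± 0.29 (limma adjusted p = 0.0121). Contralateral legs ranged from 9196 to 14532 (median 12109.5) CPM, above all 5 trained legs. The fall against them was 2.44 on the log2 scale with daily training (limma adjusted p = 6.38e-06), while the value for training every 3 days, -0.58, was not called (limma adjusted p = 0.123). The direct call was lost without TAL292 (limma adjusted p = 0.32), TAL295 (0.0531) or TAL298 (0.0713), and with the 5 trained legs alone (0.0914) or the 8 left legs alone (0.0582).

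The list of fast and glycolytic fibre genes followed in direction though mostly not in calls. Of 24 tested members, Myh4 and Actn3 fell, 20 had a log2 difference below 0, where 4727 of all 10356 genes had, and 14 had both daily legs below all others, where 12.8 percent of all genes did, with a median of -0.25 against 0.03 over all genes tested. The median stayed between -0.33 and -0.18 when each trained leg was left out. Against contralateral legs 11 members were lower with daily training and 2 every 3 days, where 2.89 and 1.7 percent of all genes were. The daily count was 4 without TAL292, 7 without TAL294 and 4 with each animal as a block. Pvalb, the calcium buffer parvalbumin of fast fibres, was at 196 and 222 CPM in the daily legs and 838, 845 and 651 CPM in the others, but the difference of -1.89 ± 0.40 was not called (limma adjusted p = 0.0997), although it was with the 5 trained legs alone (0.0126), with the 8 left legs alone (0.00324) and without TAR299 (0.00077). The kinase of fast myosin light chains, Mylk2, was at 385 and 351 CPM against 652, 720.4 and 725 CPM (-0.92 ± 0.20, limma adjusted p = 0.122; 0.0336 with the 5 trained legs alone). Against contralateral legs Pvalb fell by 2.86 with daily training (limma adjusted p = 3.70e-05), and Mylk2 by 1.80 daily (limma adjusted p = 4.42e-06) and by 0.88 every 3 days (limma adjusted p = 0.00119). Muscle glycogen phosphorylase, Pygm, was at 7505 and 7968 CPM against 11095, 11676 and 10573 CPM. Enzymes further down glycolysis overlapped between schedules, with Aldoa at -0.02, Eno3 at 0.02 and Pkm at 0.06 on the log2 scale.

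Gdf15 (chromosome 16, 18805312 to 18807894), a secreted stress factor of the TGF-beta superfamily, was higher than in contralateral legs under both schedules and higher after training every 3 days than after daily training. It was at 1.3 and 0.911 CPM in the daily legs and 11.8, 9.11 and 9.05 CPM in the others, which stands for an estimated 15 and 18 reads against 254, 185 and 135. The right legs held between 0 and 3 estimated reads each, at 0 to 0.616 CPM. The log2 difference between schedules was -2.71 ± 0.35 (limma adjusted p = 0.00321), or 6.55-fold on CPM + 0.5. Its size rests on the pseudocount at these levels, and with a pseudocount of 0.1 the gene was not called (limma adjusted p = 0.226). Against contralateral legs it rose by 4.16 every 3 days (limma adjusted p = 6.97e-09) and by 1.45 with daily training (limma adjusted p = 0.00529), the latter without a call when TAL292 was left out (limma adjusted p = 0.178) or with each animal as a block (0.0822). In the direct comparison Gdf15 kept its call without each of the 5 trained legs.

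Ctdp1 (chromosome 18, 73854282 to 73915393), a phosphatase of the C-terminal domain of RNA polymerase II, was higher than in contralateral legs under both schedules and, like Gdf15, lower with daily training than every 3 days. It was at 29.8 and 31.4 CPM in the daily legs, 64.9, 71.1 and 66.2 CPM in the others and 16.2 to 23.4 (median 18.3) CPM in contralateral legs. The 3 groups did not overlap, with the daily legs in the middle. The difference of -1.13 ± 0.15 was called (limma adjusted p = 0.00321) and was lost only without TAL292 among the trained legs (limma adjusted p = 0.0723). Against contralateral legs Ctdp1 rose by 1.80 every 3 days (limma adjusted p = 6.97e-09) and by 0.67 with daily training (limma adjusted p = 0.0031). The daily rise was not called without TAL292 (limma adjusted p = 0.0689), without TAL294 (just past 0.05) or with each animal as a block (0.067).

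Gpt2 and Slc37a4 were lower with daily training than in both the other trained legs and the contralateral legs. Gpt2 (chromosome 19, 21526801 to 21559534), the mitochondrial alanine aminotransferase, was at 66.8 and 103 CPM in the daily legs, 157, 188 and 165 CPM every 3 days and 202 to 282 (median 255) CPM in contralateral legs. All 3 groups were separate for this gene, and the schedules differed by -1.03 ± 0.17 (limma adjusted p = 0.0279). Against contralateral legs it fell by 1.58 with daily training (limma adjusted p = 2.93e-06) and by 0.55 every 3 days (limma adjusted p = 0.0131), the latter not called without TAL295 (0.108) or TAL299 (0.0702), or with each animal as a block (0.0964). Slc37a4 (chromosome 8, 44723216 to 44729301), which carries glucose-6-phosphate into the endoplasmic reticulum, was at 68.6 and 81.4 CPM daily, 133, 112 and 123 CPM every 3 days and 133 to 168 (median 143) CPM in contralateral legs. Its difference between schedules was -0.71 ± 0.13 (limma adjusted p = 0.0439), the smallest of the 9, and against contralateral legs it fell by 0.96 with daily training (limma adjusted p = 3.01e-05) while the value of -0.25 every 3 days was not called. In the direct comparison Gpt2 was called only without TAL294 when trained legs were left out one at a time (without TAL292, limma adjusted p = 0.552, TAL295 0.0531, TAL298 0.144 and TAL299 0.0955), and Slc37a4 in none of these fits (0.0571 to 0.658).

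Adgrb2, Mdga1 and Rnf145 completed the called genes, and each lay differently against the untrained legs. Adgrb2 (chromosome 5, 142331329 to 142362541), an adhesion G protein-coupled receptor, was at 0.518 and 0.506 CPM in the daily legs, an estimated 6 and 10 reads, and at 3.36, 13.0 and 5.16 CPM every 3 days. Contralateral legs had 10.9 to 49.1 (median 27.0) CPM, and the schedules differed by -2.72 ± 0.50 (limma adjusted p = 0.0471). The size and the call depended on the processing: the difference was -3.34 with a pseudocount of 0.1 and -2.26, not called, with a pseudocount of 1 (limma adjusted p = 0.103), and the call was lost with no filter (0.0506), with rescaling (0.0683) and with the most abundant model (0.0512). It fell against contralateral legs by 4.80 with daily training (limma adjusted p = 1.79e-06) and by 2.08 every 3 days (limma adjusted p = 0.00157). The next gene, Mdga1 (chromosome 20, 7904358 to 7963472), a cell-surface protein that binds neuroligins, was at 8.89 and 7.59 CPM daily and 21.3, 23.9 and 24.01 CPM every 3 days, on either side of the contralateral median of 17.8 CPM (-1.43 ± 0.25, limma adjusted p = 0.0356). It fell by 1.04 against contralateral legs with daily training (limma adjusted p = 0.0058), not called without TAL292 (0.0821) or TAL294 (0.0882), or with each animal as a block (0.0728). Rnf145 (chromosome 10, 29011548 to 29050786), a ubiquitin ligase of the endoplasmic reticulum, was at 9.84 and 8.8 CPM daily, at the lower end of the contralateral range of 8.81 to 12.7 CPM, and at 22.1, 17.5 and 19.98 CPM every 3 days, above all contralateral legs. Its difference was -1.05 ± 0.18 (limma adjusted p = 0.0356), and it rose by 0.88 against contralateral legs every 3 days (limma adjusted p = 0.00041). In the direct comparison Adgrb2 was called only without TAL295 when trained legs were left out one at a time (without TAL292, limma adjusted p = 0.446, TAL294 0.222, TAL298 0.199 and TAL299 0.118), and Mdga1 (0.0882 to 0.238) and Rnf145 (0.0713 to 0.238) in none of these fits.

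The right legs of the same rats gave the background of the comparison. Between the right legs of the 2 daily rats and those of the 3 other rats limma called 0 genes, 0 percent, with 346 genes (3.34 percent) at an unadjusted p under 0.05. With 2 and 3 legs, 1 of them the shallow TAR299 at 4.87 M estimated reads, 0 calls do not show that the right legs were alike. In the right legs the 9 genes differed by -0.95 to 0.13 on the log2 scale, with Adgrb2 the lowest at 26.5 and 10.9 CPM against 23.5, 44.5 and 35.3 CPM. When each animal was fitted as a block, so that each left leg was read against the right leg of the same rat, 0 genes were called for the difference between schedules, with 483 (4.66 percent) at an unadjusted p under 0.05. The 9 genes were all negative in that fit, from -4.58 for Myh4 to -0.66 for Slc37a4, with limma adjusted p-values of 0.618 to 0.937. A block leaves the comparison between rats to 5 own-leg differences, each with the error of both legs.

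The 9 genes were chosen on left legs that already lay apart, so their own-leg differences are given as a description. In each of the 9 both daily rats lay below the other 3, as in 11.1 percent of all genes tested (in 8.8 percent they lay above). For Gdf15 the left leg exceeded the right by 1.70 and 1.35 on the log2 scale in the daily rats and by 4.63, 4.26 and 3.10 in rats TAL295, TAL298 and TAL299. For Ctdp1 these values were 0.69 and 0.77 against 1.46, 1.97 and 1.84. For Myh4 they were -9.99 and -6.18 against -4.96, -1.93 and -3.60. In the daily rats both values for Rnf145 were below 0, at -0.14 and -0.37, and in the other rats all were above it, at 1.10, 0.72 and 0.80, a split of signs found in 3.75 percent of all genes tested. Actn3 was at -3.30 and -1.61 against -0.69, -0.35 and -0.50, with the lower value in TAL292 as for Myh4.

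**Figure D3:**
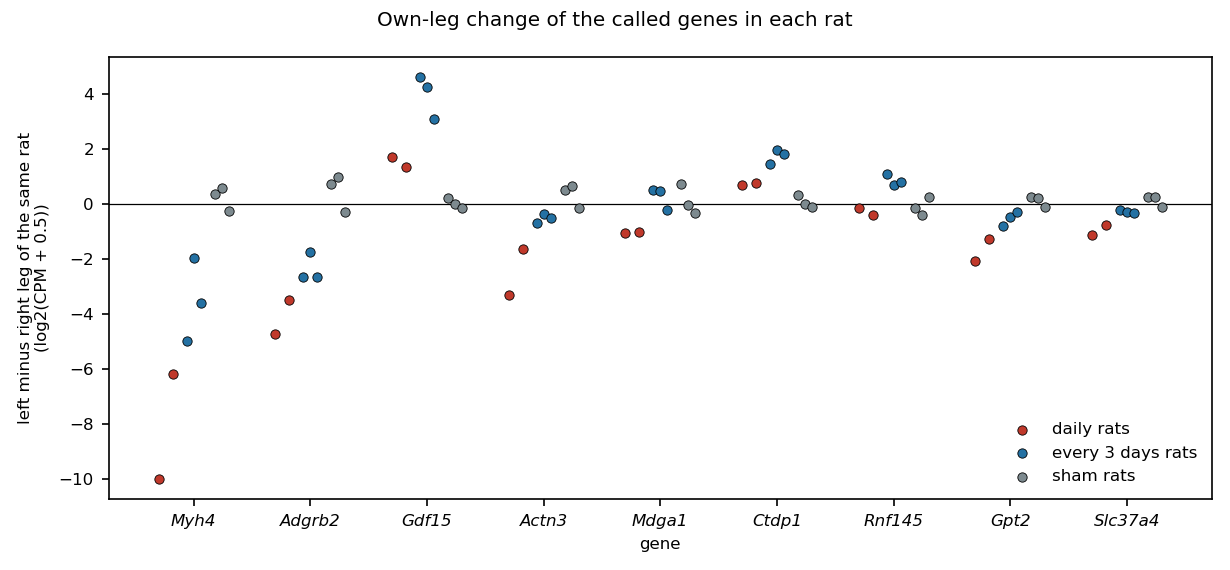
Left minus right leg of the same rat on the log2(CPM + 0.5) scale for the 9 called genes, with 1 point per rat in the daily, every 3 days and sham groups. The 2 daily rats lie below the 3 rats trained every 3 days for all 9 genes, with the daily rats at -9.99 and -6.18 for Myh4 and at -1.10 and -0.75 for Slc37a4.

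With the main pseudocount and filter, no gene was called higher after daily training in the comparison of all 16 legs. With a pseudocount of 1 Gabrr1 was called higher (limma adjusted p = 0.0175), and with no filter Th was (limma adjusted p = 0.0487). Of the 10 genes closest to a call in that direction, Gabrr1, a GABA-A receptor subunit, was at 8.63 and 14.2 CPM in the daily legs and 2.24, 0.886 and 1.34 CPM in the others (2.60 ± 0.52, limma adjusted p = 0.0715). It was called in 3 of 17 alternative fits. Prkag2, a gamma subunit of the energy sensor AMPK, was at 49.3 and 15.3 CPM against 10.1, 8.51 and 7.64 CPM (1.61 ± 0.37, limma adjusted p = 0.143). Here TAL292 stood far above TAL294, and without TAL294 the gene was called (limma adjusted p = 0.00566). The histone H3.3 chaperone Hira was at 33.6 and 32.7 CPM against 22.4, 19.3 and 22.9 CPM, and NAD kinase, Nadk, at 18.2 and 18.4 CPM against 10.9, 11.6 and 13.5 CPM. Both genes had closely spaced daily legs and log2 differences of 0.62 ± 0.16 and 0.60 ± 0.16. Lamb3, a laminin chain of basement membranes, was at 21.2 and 25.5 CPM against 6.2, 4.92 and 3.08 CPM, above the contralateral range of 2.26 to 16.4 CPM in the daily legs alone, and was called higher with the 5 trained legs alone (limma adjusted p = 0.0336). Hsd17b8, Atp5pd, Pnkd, Nme2 and Sh3glb2 completed the 10, with differences of 0.40 to 0.62 and limma adjusted p-values up to 0.434.

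Many immediate early genes rose against contralateral legs under both schedules, and most lay lower with daily training. However, none of the 27 tested members was called between schedules in the comparison of all 16 legs with the main pseudocount and filter. With daily training 17 members were higher than in contralateral legs and every 3 days 19, where 5.33 and 4.96 percent of all genes were; the daily count was 9 without TAL292. The median log2 difference against contralateral legs was 1.68 daily and 2.50 every 3 days. Between schedules 21 of the 27 were below 0, where 4727 of all 10356 genes were, and 13 had both daily legs below all others, where 12.8 percent did, with a median of -0.35, or -0.47 to -0.28 without single trained legs. By own-leg differences the median was -0.79, with 24 of 27 below 0, and in the right legs it was 0.27, the other way. At an unadjusted p under 0.05, 7 members were lower and none higher, and the lowest limma adjusted p of the list was 0.143. Under alternatives 4 members were called lower: Fosb with the 5 trained legs alone (limma adjusted p = 0.0126) and with the 8 left legs alone (0.0401), Egr1 with the 5 trained legs alone (0.0395), Egr2 with a pseudocount of 1 (0.0472) and Jund without TAR299 (0.0396).

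The members differed in how far the schedules lay apart. Fosb, which pairs with Jun proteins to form AP-1, was at 21.2 and 15.7 CPM in the daily legs and 73.0, 93.2 and 67.2 CPM in the others, with contralateral legs at 0.605 to 9.24 (median 0.979) CPM (-2.04 ± 0.67, limma adjusted p = 0.551). Egr2, a zinc-finger transcription factor, was at 3.19 and 2.88 CPM against 14.4, 11.7 and 6.57 CPM (-1.62 ± 0.37, limma adjusted p = 0.143). The AP-1 member Jund was at 158 and 196 CPM against 309, 371 and 434 CPM (-1.06 ± 0.24, limma adjusted p = 0.143). In all of these the daily legs lay between the contralateral legs and the legs trained every 3 days. Junb was at 85.1 and 76.2 CPM against 193, 157 and 123 CPM, and Csrnp1, a transcription factor of the same early wave, at 71.6 and 66.6 CPM against 113, 115 and 139 CPM. The orphan receptor Nr4a1 was at 893 and 909 CPM against 1381, 1248 and 1481 CPM, again without overlap. Other members did not separate the schedules. Atf3, a stress-induced repressor, was at 805 and 636 CPM against 598, 664 and 1008 CPM (-0.04 ± 0.55), far above its contralateral range of 4.49 to 35.7 CPM in every trained leg. Ier5 was at 42.4 and 37.9 CPM against 42.6, 36.2 and 51.0 CPM, and the MAP kinase phosphatase Dusp1 lay the other way, at 107 and 121 CPM against 59.9, 62.5 and 86.2 CPM.

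**Figure D4:**
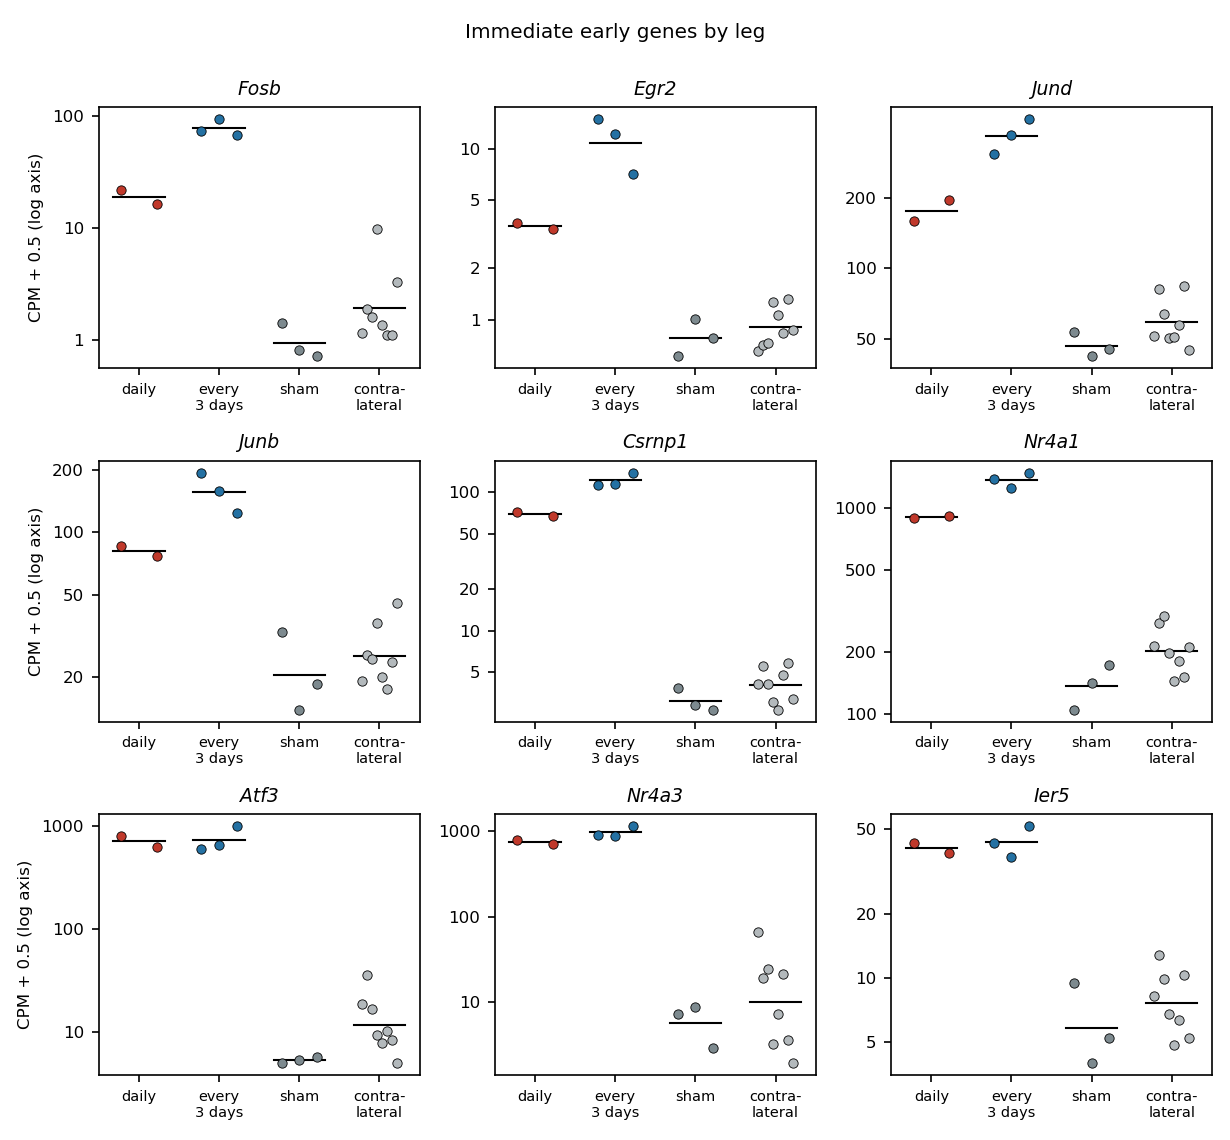
CPM of 9 immediate early genes in each leg of the 4 rat groups, on a log axis with 0.5 added; each point is 1 leg and each line the geometric mean of a group. Fosb, Egr2, Jund, Junb, Csrnp1 and Nr4a1 have both daily legs between the contralateral legs and the legs trained every 3 days, whereas the trained legs of Atf3 and Ier5 overlap.

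Some genes of stretch and load and some chaperones rose against contralateral legs under both schedules, with no member called between schedules. Of 18 load genes 8 rose daily and 8 every 3 days, where 5.33 and 4.96 percent of all genes did, and the medians were 0.91 and 1.01. Without TAL292 the daily count was 5, and without TAL299 the other was 5. Of 22 heat shock genes 13 rose daily and 12 every 3 days, against the same 5.33 and 4.96 percent, and without TAL292 the daily count was 6. Between schedules the medians were 0.48 for load and 0.18 for heat shock, and by own-leg differences 0.10 and -0.02. Load genes ran from -1.51 to 1.62 on the log2 scale, with 14 above 0 and 4 below it. At an unadjusted p under 0.05 by limma, 2 load genes were higher and 2 lower, where 2.58 and 3.3 percent of all genes were. The members with the widest gaps above 0 rested on TAL292. Csrp3, a stretch-sensing Z-disc protein, was at 2734 and 668 CPM daily and 402, 455 and 468 CPM every 3 days (1.62 ± 0.66), and the small heat shock protein Hspb7 at 4819 and 1522 CPM against 1086, 1265 and 1365 CPM (1.13 ± 0.53). Cryab, the lens and muscle chaperone alpha-B-crystallin, was at 2773 and 1370.2 CPM against 922, 1239 and 1306 CPM. In each of these TAL292 stood well above TAL294, and without TAL292 the rise against contralateral legs with daily training was not called for Csrp3 (limma adjusted p = 0.0952) or Cryab (0.0597). Ankrd1, a load-induced ankyrin repeat protein, overlapped between schedules at 279 and 151 CPM and 229, 95.8 and 99.6 CPM. Inducible Hsp70, counted as Hspa1b, was at 988 and 544 CPM against 958, 817 and 776 CPM, and its reads cannot be cleanly divided from those of Hspa1a.

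Genes of mitochondrial respiration lay slightly higher in the daily legs, all in 1 direction and none called. All 27 tested members had a log2 difference above 0, from 0.17 to 0.61, where 5629 of all 10356 genes were above 0, and 19 had both daily legs above all other trained legs, where 13.1 percent did, with a median of 0.34 (0.23 to 0.43 without single trained legs). The lowest limma adjusted p was 0.438. Own-leg differences gave a median of 0.31, and the right legs 0.03 with 15 of 27 above 0. The cytochrome c oxidase subunit Cox4i1 was at 1267 and 1219 CPM in the daily legs and 882, 861 and 966 CPM in the others (0.46 ± 0.14). Uqcrb, of respiratory complex III, was at 181 and 158 CPM against 102.19, 119.8 and 129 CPM. In contralateral legs the medians of these genes were 885 and 124 CPM, close to the legs trained every 3 days. The 24 genes of the TCA cycle and fatty acid oxidation were also all above 0, from 0.03 to 0.56, with a median of 0.22, and 6 had both daily legs above the others, against the same 5629 of 10356 and 13.1 percent. Genes measured in 1 leg are not independent samples, and the counts describe these 5 legs.

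Ppargc1a, the coactivator PGC-1alpha that drives mitochondrial genes, rose under both schedules. It was at 74.2 and 72.7 CPM daily and 46.4, 44.0 and 46.5 CPM every 3 days, with contralateral legs at 6.8 to 14.7 (median 12.1) CPM. Against these it rose by 2.64 with daily training (limma adjusted p = 6.12e-07) and by 1.96 every 3 days (limma adjusted p = 1.62e-06). The daily legs lay above the others, but the difference of 0.68 ± 0.25 was not called (limma adjusted p = 0.645). Of the 20 PGC-1 and fuel regulators none was called between schedules, and the median was 0.12. Pdk4, which closes off pyruvate oxidation, was at 384 and 520.3 CPM against 312, 159 and 111 CPM (1.34 ± 0.69), but its right legs differed in the same direction by 1.08. The glucose transporter Slc2a1 was at 5.53 and 0.961 CPM against 10.8, 10.9 and 11.3 CPM (-1.96 ± 0.59, limma adjusted p = 0.433), with a right-leg difference of -1.33. Hexokinase 2, Hk2, rose against contralateral legs under both schedules (2.26, limma adjusted p = 4.27e-06, and 2.66, limma adjusted p = 3.13e-08) and was at 508 and 445 CPM against 537, 599 and 763 CPM.

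**Figure D5:**
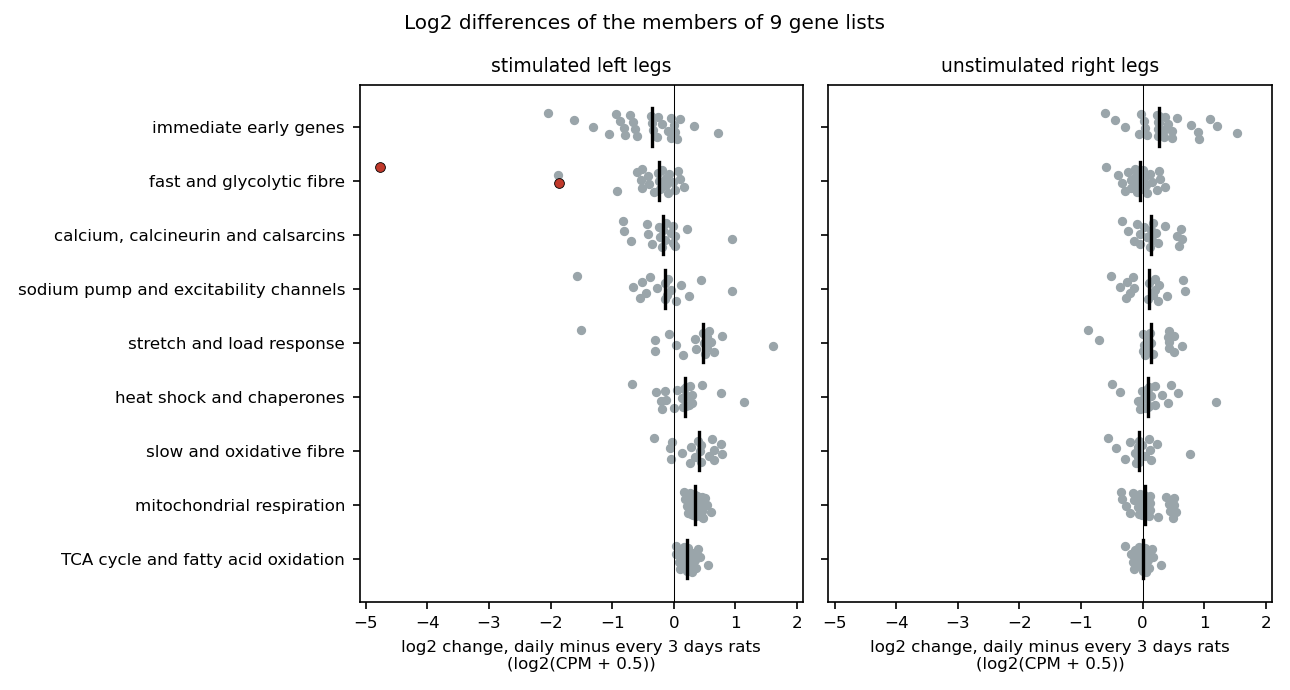
Log2 difference between daily training and training every 3 days for the members of 9 gene lists, in the left legs and, beside them, in the right legs of the same rats; each point is 1 gene, red points were called and each bar is the median. The lists of mitochondrial respiration and of the TCA cycle lie wholly above 0 in the left legs, and in the fast and glycolytic list 20 of 24 genes lie below it.

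Genes of calcium release, the T-tubule and membrane excitability lay mostly lower in the daily legs, without a call. Of 19 calcium and calcineurin genes 15 were below 0, where 4727 of all 10356 genes were. In 9 of them both daily legs lay below all others, where 12.8 percent of all genes did. The median was -0.17 and the own-leg median -0.40. By rat, the own-leg medians were -0.22 and -0.17 daily and 0.001, 0.02 and 0.46 in rats TAL295, TAL298 and TAL299. The last value uses the shallow right leg TAR299, and the median of that rat over all genes was 0.28. Junctophilin 1, Jph1, which ties the T-tubule to the sarcoplasmic reticulum, was at 127 and 155 CPM against 251, 259.5 and 239 CPM (-0.83 ± 0.24, limma adjusted p = 0.412), and its relative Jph2 at 211 and 233 CPM against 400.2, 370.2 and 309 CPM. The calcium-binding protein sarcalumenin, Srl, was at 1371 and 1406 CPM against 1817, 2067 and 1773 CPM. Against contralateral legs with daily training Jph1 fell by 0.75 (limma adjusted p = 0.0368), Jph2 by 1.18 (0.00108) and Srl by 0.50 (0.00898), while every 3 days the values of 0.08, -0.49 and -0.06 were not called. The daily calls were lost without TAL292 for Jph1 (limma adjusted p = 0.439), Jph2 (0.0674) and Srl (0.171), without TAL294 for Jph1 (0.0943) and Srl (0.0612), and with each animal as a block for the same pair (0.117 and 0.134). Rcan1, a calcineurin inhibitor that calcineurin itself induces, lay the other way at 1075 and 583 CPM against 341.69, 499 and 414 CPM (0.94 ± 0.37), and rose against contralateral legs under both schedules (3.06, limma adjusted p = 8.50e-06, and 2.13, limma adjusted p = 5.88e-05). Of 17 sodium pump and channel genes 12 were below 0, against 4727 of all 10356. The sodium pump subunit Atp1b2 was at 81.3 and 56.8 CPM against 219, 193 and 197 CPM (-1.57 ± 0.38, limma adjusted p = 0.176, and 0.0179 with the 5 trained legs alone). Another beta subunit, Atp1b1, was at 584 and 362 CPM against 206, 221 and 302 CPM.

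Atrophy and signalling lists held few called differences. Of 20 atrophy and autophagy genes 0 were called, with a median of -0.09. At an unadjusted p under 0.05 by limma, 4 were lower and 0 higher, where 3.3 and 2.58 percent of all genes were. In 5 of the 20 both daily legs lay below all others, where 12.8 percent of all genes did. Trim63, the muscle ubiquitin ligase MuRF1, was at 469 and 481 CPM daily and 748, 646 and 807 CPM every 3 days (-0.62 ± 0.16, limma adjusted p = 0.211), both above contralateral legs at 184 to 263 (median 211) CPM. It rose against them by 1.14 with daily training (limma adjusted p = 3.58e-05) and by 1.76 every 3 days (limma adjusted p = 1.27e-08). Fbxo32, the ligase atrogin-1, overlapped between schedules at 32.2 and 46.9 CPM and 53.4, 49.2 and 36.5 CPM. The growth inhibitor myostatin, Mstn, was at 5.79 and 2.02 CPM against 7.18, 10.6 and 19.8 CPM (-1.59 ± 0.52, limma adjusted p = 0.549). Irs2, an adaptor of the insulin receptor, stood at nearly 1 level in all trained legs, 446 and 444 CPM and 448, 410.3 and 514 CPM, against a contralateral median of 25.7 CPM. The interval of its difference was -0.73 to 0.66 on the log2 scale. Gdf15 was the only called member of the 22 growth factor and insulin genes, whose median was -0.07. The Notch target Hes1, from the list of satellite cell genes, was at 15.9 and 16.1 CPM against 57.8, 46.8 and 45.8 CPM (-1.61 ± 0.39, limma adjusted p = 0.176), and was called with the 5 trained legs alone (0.0126) and with the 8 left legs alone (0.00755). The amino acid transporter Slc7a5 was at 1.12 and 0.557 CPM against 4.24, 2.56 and 2.08 CPM (-1.35 ± 0.39), and the chemokine Cxcl1 at 0 and 0.101 CPM against 3.82, 0.689 and 3.08 CPM (-2.27 ± 0.46, limma adjusted p = 0.0822). Cxcl1 was called with no filter (limma adjusted p = 0.0487) and without TAL298 (0.0134). The median of the 9 tested cytokine genes was -0.37. Ccl2, a monocyte chemokine, was at 5.61 and 2.63 CPM against 25.7, 5.27 and 12.3 CPM, with an overlap between the schedules.

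Matrix genes and markers of other cell types did not separate the schedules. Of 24 extracellular matrix genes 7 were higher than in contralateral legs daily and 7 every 3 days, where 5.33 and 4.96 percent of all genes were, but without TAL292 the daily count was 0, without TAL294 it was 4, and without TAL295 the other was 3. Col1a1 was at 331 and 276 CPM daily and 567, 169.5 and 166 CPM every 3 days, and Col3a1 at 832 and 732 CPM against 1311, 439 and 437 CPM. In both, TAL295 stood above and TAL298 and TAL299 below the daily legs. The summed macrophage markers were at 29.2 to 37.1 CPM daily and 14.9 to 52.1 CPM every 3 days, and the fibroblast markers, which include Col1a1, at 560 to 637 CPM and 306 to 941 CPM. Endothelial markers summed to 176 to 181 CPM and 126 to 193 CPM, and tendon markers to 12.9 to 41.2 CPM and 18.9 to 68.9 CPM. Markers of tongue, jaw or heart muscle summed to 30.0 to 30.9 CPM and 24.2 to 50.3 CPM. All of these ranges overlap, and of the markers of these cell types in the table only Tnmd of tendon and Myl7 of heart were at 0 in any trained leg, each in 1. Of 3 lymphocyte markers only Ptprc was in the table. In contralateral legs the markers of tongue, jaw or heart muscle summed to 24.8 to 210 CPM. The highest sum was that of TAR299, with 203 CPM of Myh6. This leg also had the lowest Acta1 of the right legs, at 27986 CPM. It thus stood apart in marker levels as well as in depth, and it enters the shared spread and the contralateral ranges. The cause was not tested. The medians of the matrix, fibroblast and macrophage lists were 0.27, 0.34 and 0.18 between schedules and 0.40, 0.49 and 0.40 between the right legs of the same rats.

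Clock genes need the right legs beside them, since no time of day is given. Among 16 tested genes the median was -0.33 in the left legs and -0.14 in the right legs. Ciart, a repressor of the clock, was at 19.1 and 27.9 CPM daily and 71.3, 62.4 and 67.9 CPM every 3 days, against 0.248 to 5.86 CPM in contralateral legs, and its right-leg difference was -1.24 beside -1.52 in the left legs, which was called with the 5 trained legs alone (limma adjusted p = 0.0244). Bhlhe40, a transcription factor of the clock that also responds to activity, was at 191 and 109 CPM against 299.96, 283 and 296.31 CPM (-1.02 ± 0.26, limma adjusted p = 0.211), with a right-leg difference of -0.04. Its contralateral legs ranged from 112 to 191 (median 141) CPM, and it rose against them every 3 days (1.07, limma adjusted p = 0.00156) with no call for daily training (0.05, limma adjusted p = 0.926).

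The slow and oxidative fibre list, with 18 tested genes, had a median of 0.41 that ran from -0.09 to 0.92 when single trained legs were left out, and no member was called. Its slow troponins show the spread, with Tnnt1 at 106 and 95.6 CPM daily and 20.7, 39.6 and 244 CPM every 3 days, highest in TAL299. Myoglobin, Mb, was at 19047 and 14236 CPM and 11688, 10743 and 14649 CPM. The 40 ribosomal protein genes had a median of 0.09, the 26 proteasome genes 0.12, the 27 ribosome biogenesis genes -0.04 and the 21 denervation and neuromuscular junction genes -0.10, with no call in any. Of 14 proliferation genes 12 were below 0, against 4727 of all 10356, with a median of -0.20. Of the acetylcholine receptor genes Chrna1 overlapped between schedules at 5.96 and 4.35 CPM and 6.15, 4.72 and 7.38 CPM, and acetylcholinesterase, Ache, was at 36.01 and 52.8 CPM against 62.5, 66.4 and 61.1 CPM.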

How the data were processed

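RNA of 16 rat tibialis anterior muscles was measured; per the labels' protocols, Trizol and then RNeasy columns were used to isolate total RNA. Partek, DESeq2 and STAR 2.7.8a are listed, per the submitters' processing notes, beside builds rn7, GRCm39 and mm10, with no role given for any. The authors deposited 1 CPM value per transcript model and library, with an offset of 0.0001, which was subtracted. The 13166 models were summed by symbol to 12411 genes, 492 of which had several models. Counting method, strand handling and gene annotation are not given in the sources used here. No sample column was left unused, and the 17 mouse libraries were not used here.

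Depth was estimated from the smallest steps of the CPM values. Between 87.57 and 89.48 percent of low values were whole multiples of 1 read within 0.05, below the 95 percent set as needed, so no count test was run and read numbers are estimates.

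Genes with at least 1 CPM in at least 2 rat libraries (10356) were put on the log2(CPM + 0.5) scale. They were fitted in R 4.3.3 by limma 3.58.1 with a mean-variance trend and Benjamini-Hochberg adjustment over all genes. The 4 rat groups shared 1 estimate of spread and no block. Adding each animal as a block gave own-leg differences. Animal numbers pair the left and right legs of 1 rat; deviations of the 2 legs correlated at 0.04 to 0.26 across genes. Right legs of the schedules were compared in a fit with 6 groups. The fit was also run on simulated data. Simulated legs were independent with the same spread in all groups, so that run does not bear on the pairing of legs or on single unusual legs. Alternatives were other pseudocounts, filters, scaling, sample sets, no trend, the most abundant model per gene, the block, and each trained leg left out.

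Gene names and coordinates are those of the deposited table, and the coordinates were taken as build rn7. No rat sequence was used. The text names the called genes, the 10 genes closest to a call in the other direction, members of gene lists with the smallest p and fixed key genes; further list members were named after their values were seen, and 1 gene is not reported here. Members and lists were chosen with earlier results of these data known. Tables were made with Python 3.11.15, pandas 2.3.3, numpy 2.4.6 and scipy 1.17.1, and figures with matplotlib 3.10.9.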

Additional observations from a re-analysis of the deposited data

Results flagged for a closer look

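Single contralateral legs stood apart from the other 7 for 6 of the 100 named genes by Dixon's test. The test picks about 1 in 20 groups by chance, so this number is near the one that chance alone would give. The right leg TAR299, the shallowest library, had 2.26 CPM of Prkag2, 0.616 CPM of Gdf15 (an estimated 3 reads) and 186 CPM of Ncl. The right leg TAR296 had 1711 CPM of Srl and 16.2 CPM of Polr1b, and the right leg TAR300 had 18.9 CPM of Chrna1.

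For 7 named genes the left leg differed from the right leg in 1 direction in both daily rats and in the opposite direction in all 3 rats trained every 3 days, a pattern that 3.75 percent of all genes tested showed. The difference of own-leg changes, daily minus every 3 days on the log2 scale, was 0.70 for Hira, 0.70 for Nadk and 0.57 for the nucleoside diphosphate kinase Nme2. It was 0.41 for the endothelial receptor Tek, 0.80 for the fatty acid carrier Fabp4, -1.13 for Rnf145 and -0.96 for Mstn. None of these differences was called in the fit with the animal as a block.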

How the results depend on the processing

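The count of 9 genes between schedules was 21 with the 5 trained legs alone (16 lower and 5 higher, with 3 of the 9 among them), 5 without the mean-variance trend, 29 without the right leg TAR299 and 0 with the animal as a replicate block, and 3 to 14 with single trained legs left out. The count against contralateral legs was 284 for daily training under the block and 123 to 835 without single trained legs, and for every 3 days 323 to 659. Against sham these were 188 to 768 and 267 to 436. Of 100 named genes 83 kept their direction in all alternatives run. Alternatives that change only the spread cannot turn a direction, and many of these genes were named for a small p. With the block the sign reversed for C1qb (-0.072), S100a9 (-0.56), Chad (-0.25), Scx (0.10), Mbp (0.61), Hba-a1 (-0.16), Hba-a2 (-0.43), Tuba1a (-0.083), Col1a1 (-0.26) and Col3a1 (-0.12). The block without the rat of TAL299, chosen after seeing the data, reversed C1qb (-0.21), S100a9 (-0.53), Col1a1 (-1.07), Col3a1 (-0.74), Fbxo32 (0.16), Chrna1 (0.13), Mbp (1.82) and Tfrc (0.18). With single trained legs left out the sign also turned for S100a9 (-0.026 to 0.74), Chad (-0.070 to 1.42), Scx (-1.38 to 0.25), Mbp (-0.96 to 0.10), Hba-a2 (-0.059 to 0.56), Atf3 (-0.21 to 0.18), Myh7 (-0.18 to 1.76), Myh2 (-0.21 to 0.69), Col1a1 (-0.037 to 0.85), Fbxo32 (-0.50 to 0.033), Irs2 (-0.11 to 0.053) and Tfrc (-0.20 to 0.19). None of these genes was called between schedules, and the cause was not tested. Of 577 medians of the 34 lists under alternatives, 532 moved by less than the spread between legs. Several alternatives change only the estimate of spread and leave every median as it was, so this tally does not measure stability. With 2 daily legs, genes with few reads, such as Gdf15 and Adgrb2, carry the least certain sizes.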
